A study of Mus musculus with 40 samples.

Results

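The miR-181 family was followed in hippocampal CA1 tissue through 7 mature miRNAs, the 5p arms mmu-miR-181a-5p, mmu-miR-181b-5p, mmu-miR-181c-5p and mmu-miR-181d-5p and the 3p arms mmu-miR-181a-1-3p, mmu-miR-181a-2-3p and mmu-miR-181c-3p (the prefix mmu is left out from here on). They were chosen by name, as both arms of the family, out of 1978 mature miRNAs in the count table, and each was read from the precursor row with the highest total count. A further 3 rows of the family, miR-181b-1-3p, miR-181b-2-3p and miR-181d-3p, are given beside them where they were measurable. Small RNA was sequenced from the CA1 region of 40 mice on a C57Bl/6J background, both sexes being used. The groups were 5 wild-type control (WT) and 9 CaMKIIδC transgenic (TG) mice at 3 months of age and 15 WT and 11 TG mice at 6 months. TG mice carry extra CaMKIIδC, a cardiac isoform of the calcium/calmodulin-dependent kinase, and serve as a model of heart failure, so that the hippocampus was studied as a remote organ. The promoter of the transgene is not given in the sources used here. WT mice were littermates. The design asks how TG and WT mice differed at each age, how the ages differed within a genotype, and whether the age difference depended on the genotype. The genotype field of 2 of the 5 3-month WT mice, numbers 1 and 2, reads TG while their titles read wild type, and the title was used.

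The libraries held between 2656368 and 36547011 counts in all. Those of 3-month mice were deeper, with a median of 18431486 miRNA counts in TG and 14340558 in WT mice, against 9239179 and 9893109 at 6 months. The 4 shallowest libraries, called shallow here, had between 1926108 and 4791121 miRNA counts and were those of 6-month TG mice 8 and 9 and of 6-month WT mice 4 and 5. The neuronal markers miR-124-3p, miR-9-5p and miR-128-3p were all detected, and together they made up 164715 to 362862 CPM in a library. CPM, the scale of all levels here, are read counts scaled to library size with TMM factors, and every member had at least 22 reads in every library. The titles number the mice within a group and no label gives a batch, litter or date, so that p-values measure the spread between these libraries.

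MicroRNAs are short RNAs cut from a hairpin precursor, of which either arm (5p or 3p) can be loaded into an Argonaute protein. The loaded strand pairs with target messenger RNAs mainly through its seed, bases 2 to 8 from the 5′ end, so that miRNAs with the same seed share many predicted targets. The miR-181 family is known for its role in lymphocyte development and is abundant in brain, where miR-181a is found in neurons and near synapses. The mature sequences are shown because the seed decides which members can be grouped and because the 3p arms are what distinguishes the loci. Capitals mark the seed, and sequences are from RefSeq on GRCm38.p6.
miR-181a-5p: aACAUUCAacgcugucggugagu
miR-181b-5p: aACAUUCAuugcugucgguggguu
miR-181c-5p: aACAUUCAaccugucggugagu
miR-181d-5p: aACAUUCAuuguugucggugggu
miR-181a-1-3p: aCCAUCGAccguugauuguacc
miR-181a-2-3p: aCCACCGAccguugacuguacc
miR-181c-3p: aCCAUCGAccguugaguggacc

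The 4 5p arms shared 1 seed, and no other mouse miRNA of the RefSeq table carried it. Outside the seed, miR-181a-5p and miR-181b-5p differed at A9U, C10U and A21G (base of the first, position from the 5′ end, base of the second), and miR-181b-5p is 1 base longer. miR-181b-5p and miR-181d-5p differed at C12U alone over the 23 bases compared, and miR-181c-5p differed from miR-181a-5p by 1 missing base. How many mismatches the counting allowed is not given in the sources used here. Some reads could therefore stand on the wrong one of a close pair such as miR-181b-5p and miR-181d-5p. Set side by side without gaps, miR-181a-5p and miR-181c-5p mismatch at 11 of 22 positions. Whether reads were exchanged within any pair was not tested. The 3p arms fell into 2 seed groups. miR-181a-1-3p shares its seed with miR-181c-3p and differs from miR-181a-2-3p at U5C, inside the seed, and at U16C.

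A total of 6 hairpins at 3 loci encode the family. On chromosome 1, Mir181a-1 (chr1:137966455-137966541, plus strand, GRCm38) lies in an intron of the processed transcript Gm4258, and Mir181b-1 (chr1:137966639-137966718) follows it after 97 bases, inside an exon of the lincRNA A430106G13Rik. On chromosome 2, Mir181a-2 (chr2:38852735-38852810, plus strand) and Mir181b-2 (chr2:38853830-38853918) are 1019 bases apart and lie opposite to an intron of Nr6a1, which is transcribed from the minus strand. On chromosome 8, Mir181d (chr8:84178716-84178787, minus strand) and Mir181c (chr8:84178873-84178961), 85 bases apart, lie in an intron of Nanos3 on the same strand (GENCODE annotation). The 2 hairpins of miR-181a are printed whole, with the mature arms in capitals, to show that the 5p arm is identical at both loci and the 3p arm is not.
Mir181a-1: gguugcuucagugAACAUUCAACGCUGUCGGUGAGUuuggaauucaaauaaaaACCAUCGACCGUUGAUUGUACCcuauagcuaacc
Mir181a-2: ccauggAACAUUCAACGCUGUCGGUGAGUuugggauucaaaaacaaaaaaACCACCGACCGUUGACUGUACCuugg

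Reads of miR-181a-5p and miR-181b-5p were listed under both of their hairpins. The 2 rows of miR-181a-5p differed by at most 0.0106% in a library and those of miR-181b-5p by 0.522 to 3.65%, so that their 5p counts do not separate the loci and the 3p arms are the only rows that do.

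miR-181a-5p was the most abundant member, with a mean of 6752 CPM over the 40 libraries, rank 25 among all miRNAs. It was followed by miR-181b-5p with 1766 CPM (rank 57), miR-181d-5p with 874 CPM (rank 82), miR-181a-1-3p with 141 CPM (rank 166), miR-181c-5p with 84.9 CPM, miR-181a-2-3p with 65.6 CPM (rank 229) and miR-181c-3p with 36.2 CPM (rank 269). The order from miR-181a-5p through miR-181b-5p and miR-181d-5p to miR-181a-1-3p held in 40 of 40 libraries. The lower neighbours changed places in some libraries, since miR-181a-1-3p exceeded miR-181c-5p in 37 libraries, miR-181c-5p exceeded miR-181a-2-3p in 28, and miR-181a-2-3p exceeded miR-181c-3p in 29. Mature miRNAs are of nearly one length, so that no length scaling was applied, but ligation and amplification can favour some sequences over others and a level is not a molar amount.

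Together the 7 members took 1.01% of miRNA counts on average, from 0.328 to 1.80% among the libraries. Within the 5p arms, miR-181a-5p made up 71.0% ± 2.87 of the reads (SD, n = 40), miR-181b-5p 18.7% ± 1.82, miR-181d-5p 9.43% ± 1.75 and miR-181c-5p 0.874% ± 0.284. The 3p arm held 3.10% of miR-181a reads and 31.4% of miR-181c reads, so that the arms of miR-181c were closest in level, while miR-181a gave mostly the 5p arm. In miR-181b it held 0.274% and in miR-181d 0.0412%. Of the further rows, miR-181b-1-3p had a mean of 4.51 CPM, and miR-181b-2-3p and miR-181d-3p had 0.319 and 0.354 CPM. The last 2 rows had no read in 5 and 6 libraries, where 0 reads allow up to 3 counts. Over all 40 libraries, 3 counts came to 0.131 to 1.56 CPM when scaled to the miRNA count alone, without TMM factors. miR-181b-2-3p and miR-181d-3p were too low to be tested.

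**Figure D1:**
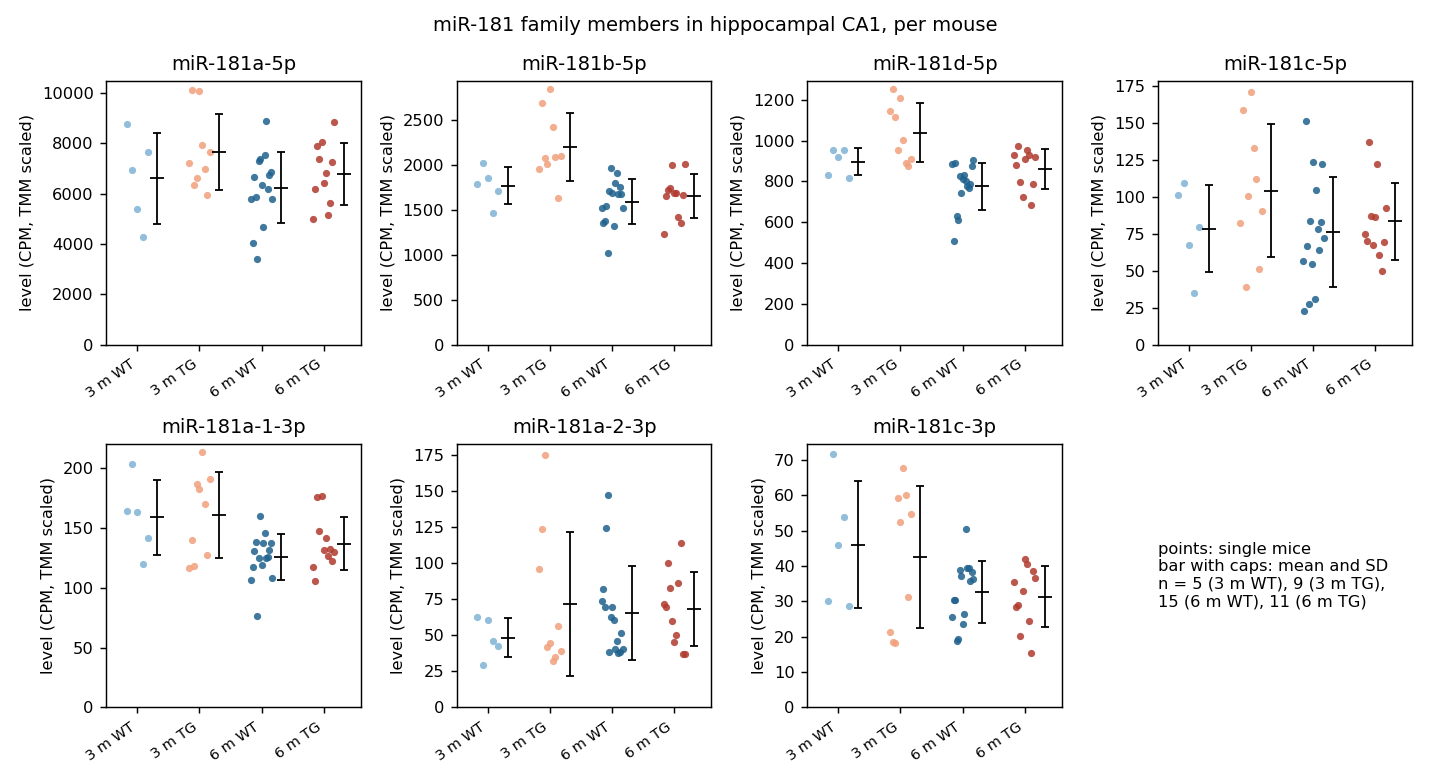
Levels of the 7 miR-181 members in each mouse (y axis, CPM with TMM scaling, starting at 0) by group (x axis), with the mean and SD beside the points. In 6-month TG mice miR-181b-5p lay between 1228 and 2010 CPM, below the mean of 2200 CPM of 3-month TG mice in all 11, while miR-181a-2-3p in 3-month TG mice ran from 32.1 to 175 CPM.

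Among the 5p arms, miR-181b-5p was lower in 6-month than in 3-month TG mice. Its level ran from 1631 to 2842 CPM with a median of 2085 CPM in the 9 3-month TG mice, and from 1228 to 2010 CPM with a median of 1689 CPM in the 11 6-month TG mice. All 11 older mice lay below the mean of the younger group, 7 of 9 younger mice lay above the highest older one, and the ranges overlapped. The log2 fold change (log2FC) was -0.40 (SE 0.12, adjusted p = 0.0292, edgeR quasi-likelihood test). In this comparison 629 miRNAs were tested and 15.7% were called, a call being an adjusted p under 0.05 with an absolute log2FC above 0.26, 8.27% lower and 7.47% higher. miR-181b-5p was the 1 of 7 members called, which is near that background. Scaling by the total miRNA count in place of TMM moved the median log2FC of all miRNAs from -0.09 to -0.29 and the share of lower among called miRNAs from 52.5 to 70.4%.

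The call of miR-181b-5p was not held by every setting. Its adjusted p was 0.0801 (log2FC -0.35) without the 4 shallow libraries and 0.145 (-0.30) with the log2 total miRNA count as a covariate, both alternatives chosen after seeing the data, 0.0746 without a filter on low counts and 0.0566 with limma. Leaving out 1 of the 20 mice kept the call in 15 cases. It was lost without 6-month TG mouse 2 or 8 or 3-month TG mouse 2, 5 or 6, where the adjusted p reached at most 0.0733 and the log2FC stayed between -0.44 and -0.35 over all 20 fits.

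The other 6 members also had log2FC below 0 in TG mice, none of them called. miR-181d-5p, the member next to miR-181c-5p on chromosome 8, ran from 874 to 1255 CPM with a median of 1005 CPM at 3 months and from 683 to 972 CPM with a median of 908 CPM at 6 months (log2FC -0.25, SE 0.11, adjusted p = 0.119, edgeR). All 11 older mice lay below the younger mean, 4 of them below the lowest younger mouse. DESeq2 called it, with an adjusted p of 0.00929 and a log2FC of -0.30, and over its 13 alternatives the adjusted p ran from 0.00127 to 0.295. miR-181a-5p ran from 5966 to 10144.5 CPM with a median of 7218 CPM at 3 months and from 4978 to 8845 CPM with a median of 6821 CPM at 6 months. Its ranges overlapped for most mice, with 2 of the 9 younger mice above the highest older one, and its log2FC was -0.16 (SE 0.14, adjusted p = 0.412, edgeR). The log2FC was -0.31 (SE 0.24) for miR-181c-5p, -0.22 (SE 0.14) for miR-181a-1-3p, -0.04 (SE 0.31) for miR-181a-2-3p and -0.43 (SE 0.25) for miR-181c-3p, the member with the fewest reads. The sign of miR-181a-2-3p turned under several alternatives, while scaling by the total miRNA count left all 7 below 0. The median over the 7 members was -0.25, and over all 629 miRNAs tested it was -0.09, with 56.9% below 0. Of the further rows, miR-181b-1-3p, the 3p arm of the chromosome 1 hairpin, was called lower (log2FC -0.62, SE 0.17, adjusted p = 0.0146, edgeR). It ran from 4.83 to 6.73 CPM at 3 months and from 1.96 to 5.69 CPM at 6 months, with 9 of 11 older mice below the lowest younger one. Alternatives were run for the 7 members and not for this row, which had as few as 4 reads in a 6-month TG library. In WT mice it was also lower at 6 months, without a call (log2FC -0.54, SE 0.21, adjusted p = 0.301, edgeR). All 15 older WT mice lay below the younger mean. The difference between the genotypes in this age change was -0.10 (SE 0.26, adjusted p = 0.986, edgeR).

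Some markers of other cells were called between the same TG groups, where 15.7% of all 629 miRNAs were called (8.27% lower, 7.47% higher). Both oligodendrocyte markers were called lower at 6 months, miR-219a-2-3p with a log2FC of -0.57 (SE 0.15, adjusted p = 0.0119, edgeR) and miR-338-3p with -1.02 (SE 0.28, adjusted p = 0.0157), and their summed level ran from 1186 to 2299 CPM at 3 months and from 741 to 1347 CPM at 6 months. Both choroid plexus markers, miR-204-5p and miR-211-5p, were called higher, from 290 to 749 CPM at 3 months against 638 to 1023 CPM at 6 months in sum. Of the 3 muscle markers 1 was called lower (622 to 1693 CPM against 387 to 892 CPM in sum), of the 3 vessel markers 1 higher, of the 3 erythroid markers 1 higher and 1 lower, and of the 3 microglia and leukocyte markers none. No marker of these lists was at 0 in every library. In bulk tissue fewer cells of a type and less RNA per cell cannot be told apart, and the part of these cells in the lower miR-181b-5p was not tested.

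In WT mice, 660 miRNAs were tested between the ages and 0.152% were called. None of the 7 members was among them in edgeR, DESeq2 or limma, although 2, miR-181a-1-3p and miR-181c-3p, had an unadjusted p under 0.05. miR-181a-1-3p, the 3p arm of the chromosome 1 locus, stood at 164.2, 203.75, 163.7, 120.1 and 141.9 CPM in the 5 3-month WT mice and ran from 76.7 to 159.9 CPM, with a median of 125.8 CPM, in the 15 6-month WT mice (log2FC -0.34, SE 0.16, adjusted p = 0.314, edgeR). Of the 15 older mice 14 lay below the younger mean, and 3 of the 5 younger mice lay above the highest older one. miR-181c-3p stood at 30.02, 71.8, 45.9, 54.0 and 28.8 CPM in the younger and ran from 18.8 to 50.5 CPM, with a median of 35.6 CPM, in the older mice (log2FC -0.50, SE 0.22, adjusted p = 0.310, edgeR). The younger mice lay on both sides, 2 of the 5 above the highest older mouse and the other 3 inside the older range. miR-181a-2-3p was the 1 member with a log2FC above 0 (0.42, SE 0.30, adjusted p = 0.520, edgeR). Without 3-month WT mice 1 and 2, whose genotype field reads TG, 4 of the 7 members were below 0, with miR-181a-5p at 0.10 and miR-181c-5p at 0.33, and miR-181a-1-3p moved to -0.18. The median over the members was -0.16, against -0.02 over all 660 miRNAs. With factors of unwanted variation (RUVr, fitted in DESeq2), the kind of correction the study used without naming its settings, all 3 of these 3p arms were called in WT mice, as were 28.9 and 32.3% of all miRNAs with 1 and 2 factors.

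Between TG and WT mice no member was called at either age by edgeR, DESeq2 or limma. With 2 RUVr factors miR-181a-2-3p was called higher in TG mice at 3 months (log2FC 0.34, adjusted p = 0.0140, DESeq2), among 7.77% of all miRNAs, and with 1 factor its adjusted p was 0.174. At 3 months 695 miRNAs were tested and 0% called in edgeR, with 7 at an unadjusted p under 0.05, and neither DESeq2 nor limma called any. None of these 7 was a member. The members' median log2FC was 0.18 (all miRNAs 0.04), and the members farthest from 0 were miR-181a-2-3p (0.47, SE 0.37, adjusted p = 0.998, edgeR) and miR-181c-5p (0.38, SE 0.37, adjusted p = 0.998). miR-181b-5p stood at 1789, 2023, 1849.6, 1461.5 and 1707 CPM in the 5 WT mice and above their mean in 8 of the 9 TG mice (log2FC 0.28, SE 0.18, adjusted p = 0.998, edgeR). At 6 months 612 miRNAs were tested and 0% called in edgeR, with 3 at an unadjusted p under 0.05 and no member among them, and DESeq2 and limma again called none. The members' log2FC lay between -0.08 and 0.14 there, the highest being that of miR-181d-5p (SE 0.09, adjusted p = 0.992, edgeR). With TMM 6 of the 7 were above 0, and with scaling by the total miRNA count 6 of the 7 were below 0. These comparisons share their groups with the age comparisons above.

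The interaction of age and genotype, the test of whether the age difference itself differed between TG and WT mice, gave 0% calls among 699 miRNAs in edgeR, with 14 at an unadjusted p under 0.05, none of them a member, and no call in DESeq2 or limma. For miR-181b-5p it was -0.26 (SE 0.18, adjusted p = 0.986, edgeR), for miR-181c-5p -0.28 (SE 0.43) and for miR-181a-2-3p -0.49 (SE 0.45). No difference between the genotypes in how a member changed with age was detectable with these numbers of mice.

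**Figure D2:**
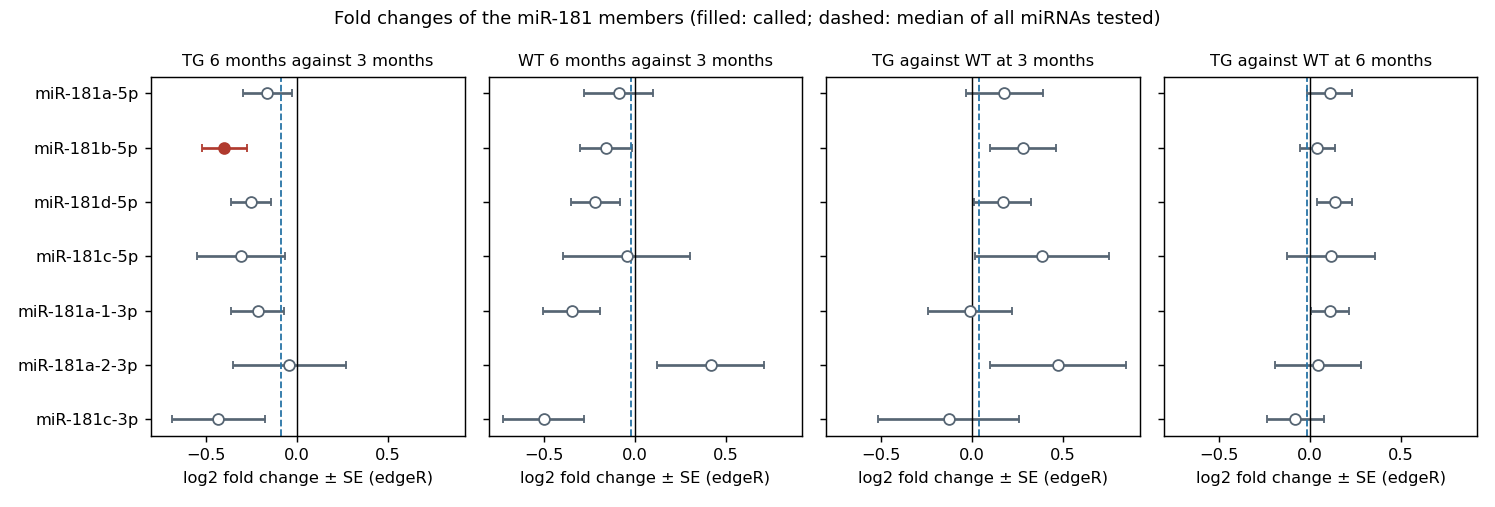
Log2 fold changes of the 7 miR-181 members with their SE from edgeR (x axis) in the 4 two-group comparisons, the filled point being called and the dashed line marking the median of all miRNAs tested. In TG mice between the ages all 7 points lie below 0 and miR-181b-5p at -0.40 is the filled one, while at 6 months the genotypes differ by at most 0.14.

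Ratios of 2 rows of the same library do not depend on how libraries were scaled. Of 6 such ratios in 4 comparisons, 1 of 24 passed an adjusted p of 0.05. The ratio of miR-181b-5p to miR-181a-5p, the products of neighbouring hairpins, ran from 0.265 to 0.327 with a median of 0.281 in 3-month TG mice, and from 0.217 to 0.276 with a median of 0.247 in 6-month TG mice. The groups overlapped only between 0.265 and 0.276. The mean log2 ratio was -1.80 ± 0.10 (SD, n = 9) at 3 months and -2.03 ± 0.10 (SD, n = 11) at 6 months, a difference of -0.24 (exact two-sided permutation test, p = 0.000107, adjusted p = 0.00257 over the 24 tests). It remained past the threshold when each of the 20 TG mice was left out in turn, with an adjusted p of at most 0.00762, and without the 4 shallow libraries (-0.25, adjusted p = 0.00197, exact permutation test). Counting 3-month WT mice 1 and 2 as TG, as their genotype field has them, gave -0.19 with an adjusted p of 0.156. In WT mice the same ratio stood at 0.204, 0.291, 0.343, 0.342 and 0.223 at 3 months, with an SD of 0.35 on the log2 scale, and ran from 0.206 to 0.336 at 6 months with an SD of 0.18 (difference -0.08, exact permutation test, p = 0.475, adjusted p = 0.928). Whether the difference in TG mice exceeded that in WT mice was not tested.

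The ratio of miR-181a-1-3p to miR-181a-2-3p compares the chromosome 1 with the chromosome 2 locus of miR-181a. It was above 1 in 38 of 40 libraries, so that miR-181a-1-3p made up 68.9% ± 11.9 of the 3p reads of miR-181a (SD, n = 40). Yet it ran from 0.522 to 6.86, a 13.1-fold range. In CPM over the same libraries, miR-181a-1-3p varied 2.78-fold, miR-181a-2-3p 5.91-fold and miR-181a-5p 2.99-fold. The lowest ratio was that of 6-month WT mouse 5, a shallow library with 99 and 190 reads of the 2 arms. In 3-month WT mice it stood at 2.61, 6.86, 2.68, 2.62 and 3.31. In 3-month TG mice it ran from 0.675 to 6.65 with a median of 4.09, and at 6 months from 0.522 to 3.58 (median 2.55) in WT and from 1.16 to 3.51 (median 1.78) in TG mice. Ranges overlapped in all comparisons, and no difference between groups passed the test, the nearest being 6 months against 3 months in WT mice (log2 difference -0.69, exact permutation test, p = 0.0850, adjusted p = 0.884).

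This locus ratio moved with library measures inside the groups. Against the log2 total miRNA count it had a Pearson r of 0.79 in 3-month TG mice (n = 9, exact permutation test, p = 0.0134, adjusted p = 0.0161, Spearman rho 0.78, p = 0.0172) and of 0.84 in 6-month WT mice (n = 15, permutation test, p = 0.000350, adjusted p = 0.000820, rho 0.61, p = 0.0187). Without the 2 libraries farthest from the median depth r was 0.85 in the former and 0.43 in the latter, where the relation rests on those libraries. In 6-month TG mice r was 0.54 (n = 11, permutation test, p = 0.0770, rho 0.32, p = 0.339) and -0.08 without 2 libraries. Against the log2 CPM of miR-124-3p, a neuronal miRNA that was picked for this after values were seen, r was 0.92, 0.88 and 0.90 in 3-month TG, 6-month WT and 6-month TG mice (adjusted p = 0.00255, 6e-05 and 0.000820, permutation tests, exact in the group of 9, rho 0.93, 0.84 and 0.79), and 0.99, 0.80 and 0.91 without the 2 farthest libraries. Relations were computed over groups of at least 6 mice, and so not in the 5 3-month WT mice. The other neuronal markers, miR-9-5p and miR-128-3p, were not set against the ratio. The 3 neuronal markers did not move together between the ages in TG mice. Their log2FC ran from -0.66 for miR-124-3p, the marker picked, to 0.73 for miR-128-3p. CPM of miR-124-3p and the 3p arms come from the same libraries, and what sets the ratio was not tested.

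**Figure D3:**
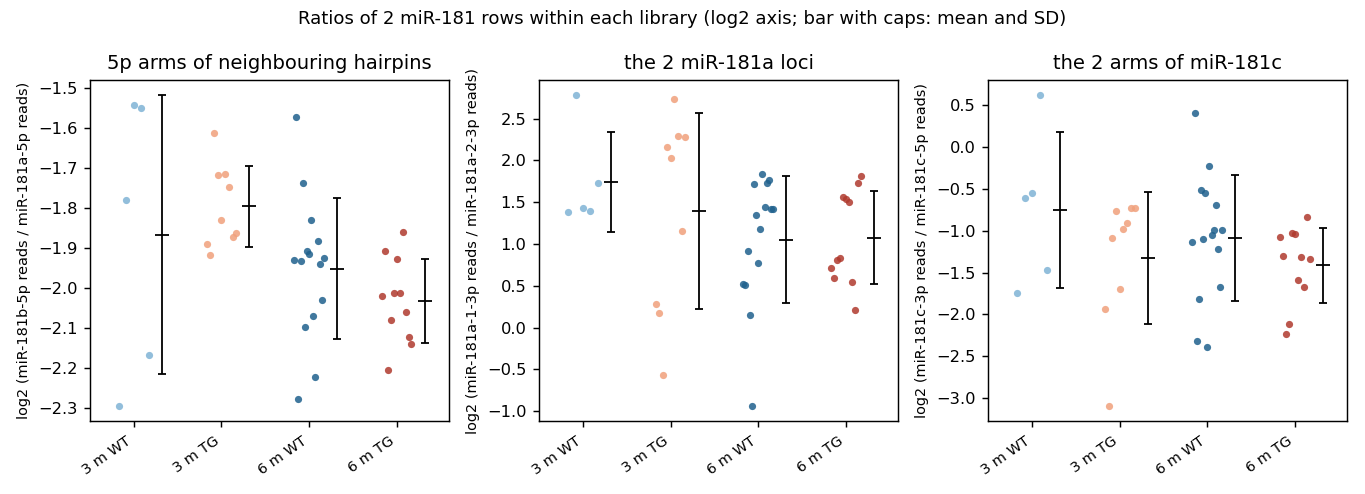
Log2 ratios of 2 miR-181 rows within each library (y axes) by group (x axis), with mean and SD. The ratio of miR-181b-5p to miR-181a-5p (left) is lower in 6-month than in 3-month TG mice by 0.24, while the ratio of the 2 miR-181a loci (middle) and of the 2 arms of miR-181c (right) spread 13.1-fold and 13.0-fold over the 40 libraries with all groups overlapping.

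Members were also compared with each other across mice, on log2 CPM after the group means had been subtracted (40 libraries, permutation tests with 100000 resamples, Benjamini-Hochberg over the 21 pairs). Of the 21 pairs 17 had an adjusted p under 0.05 by Pearson's r, 12 of them positive and 5 negative, and 12 pairs did so by Spearman's rho. The share of such pairs among all miRNAs was not computed, so that this count has no background beside it. With miRNAs outside the family, miR-181a-2-3p reached r of 0.96 (miR-671-3p) and -0.95 (miR-376a-5p) on the same values. The 5p arms of miR-181a and miR-181b moved together, with r = 0.86 and rho = 0.84 (p = 1e-05 for both, the smallest the resamples can give, adjusted p = 7e-05, r = 0.82 without the 2 farthest libraries, and 0.93, 0.90 and 0.93 within 3-month TG, 6-month WT and 6-month TG mice). miR-181a-5p and miR-181c-5p, products of different chromosomes, had r = 0.75 and rho = 0.69 (permutation p = 1e-05, adjusted p = 7e-05, r = 0.67 without 2 libraries). miR-181c-5p and miR-181d-5p, from neighbouring hairpins, had r = 0.52 and rho = 0.41 (permutation p = 0.000530 and 0.00876, adjusted p = 0.00142 and 0.0204, r = 0.48 without 2 libraries).

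The 3p arms of miR-181a differed in the sign of their r with the 5p arm, the negative one passing by Pearson's r alone. miR-181a-5p had r = 0.53 with miR-181a-1-3p (rho 0.46, permutation p = 0.000420 and 0.00327, adjusted p = 0.00142 and 0.00981, r = 0.42 without 2 libraries) and r = -0.36 with miR-181a-2-3p (rho -0.31, permutation p = 0.0229 and 0.0513, adjusted p = 0.0370 and 0.0718, r = -0.22 without 2 libraries). Within 3-month TG, 6-month WT and 6-month TG mice r was 0.32, 0.66 and 0.57 with miR-181a-1-3p. With miR-181a-2-3p it was -0.02, -0.66 and -0.44. The largest negative value was between miR-181a-2-3p and miR-181c-3p, which differ at C5U, C16G and U19G, with r = -0.87 and rho = -0.85 (permutation p = 1e-05, adjusted p = 7e-05, r = -0.85 without 2 libraries). It was -0.97, -0.88 and -0.81 within 3-month TG, 6-month WT and 6-month TG mice. In 3-month TG mice, numbers 1, 2 and 3 combined the highest levels of miR-181a-2-3p in their group (95.8, 123.9 and 175 CPM, against 32.1 to 56.8 CPM in the others) with the lowest of miR-181c-3p (21.4, 18.6 and 18.1 CPM, against 31.1 to 67.7 CPM). The TMM factors of these libraries were 0.83, 0.80 and 0.63, against 0.89 to 1.37 in the others of the group. The same combination recurred at 6 months in WT mice 4 and 5 and TG mouse 9, all shallow libraries. Their miR-181a-2-3p was the highest of their groups (124.7, 147.2 and 114.0 CPM) and their miR-181c-3p the lowest (18.8, 19.4 and 15.4 CPM). Their TMM factors, 0.64, 0.62 and 0.74, were also the lowest of their groups. Points of 1 library share its scaling and depth, and the part of either in these correlations was not tested. For miR-181d-5p and the 3p arms r lay between -0.12 and 0.12 (permutation p between 0.460 and 0.994), with values of either sign within the groups.

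**Figure D4:**
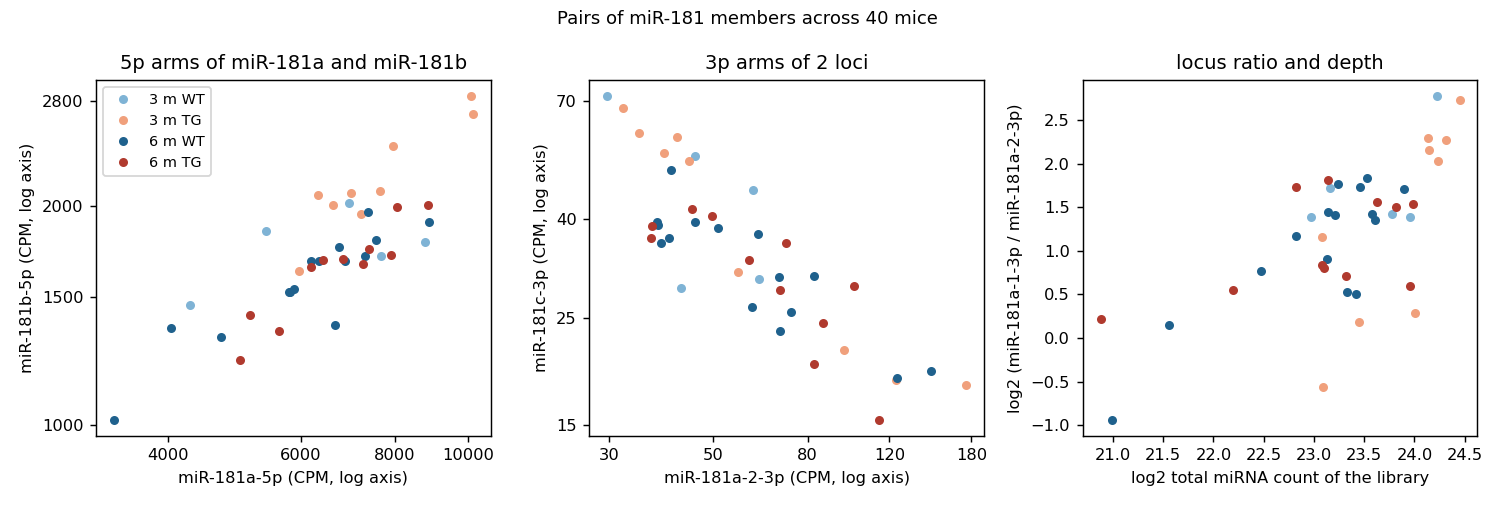
Each point is 1 of the 40 mice, coloured by group, with miR-181b-5p against miR-181a-5p (left) and miR-181c-3p against miR-181a-2-3p (middle) in CPM on log axes, and the log2 ratio of the 2 miR-181a loci against the log2 total miRNA count (right). The 5p arms rise together (r = 0.86 after subtracting group means), and the 2 3p arms run against each other (r = -0.87). In the right panel the shallowest libraries lie low, as do deeper ones such as 3-month TG mice 1, 2 and 3 (0.28, 0.18 and -0.57).

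As a description, each member was set beside 354 miRNAs outside the family, those whose mean reached 10 CPM, on the same centred log2 CPM over 40 libraries that share their depth and scaling. miR-181a-5p was most like miR-410-3p (r = 0.79), miR-22-3p (0.77) and miR-151-5p (0.75), and miR-181c-5p like miR-410-3p (0.90), miR-151-5p (0.88) and miR-376a-3p (0.86). miR-181b-5p was most like miR-338-3p (0.77), the oligodendrocyte marker named above, then miR-125b-5p (0.75) and miR-15a-5p (0.74), and miR-181d-5p like miR-98-5p (0.68), miR-873a-3p (0.52) and miR-335-3p (0.52). Among the 3p arms, miR-181a-2-3p had the closest companions of any member, miR-671-3p (0.96), miR-30a-3p (0.95) and miR-99b-5p (0.95), and miR-376a-5p at the other end (-0.95). miR-181c-3p was most like miR-369-3p (0.93), miR-30b-5p (0.89) and miR-29c-3p (0.89), and miR-181a-1-3p like miR-129-1-3p (0.71), miR-34a-5p (0.69) and miR-338-3p (0.66).

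Beside the family, 12 miRNAs known from neurons and synaptic plasticity were read. In TG mice between the ages 2 of the 12 were called higher and none lower, beside 15.7% called of all 629 miRNAs tested (7.47% higher). Their log2FC ran from -0.69 to 0.73 with a median of -0.14, and 7 of the 12 lay below 0. The 2 called were miR-128-3p, the most abundant of the 12 at a mean of 164737 CPM (log2FC 0.73, SE 0.21, adjusted p = 0.0210, edgeR), and miR-218-5p (0.55, SE 0.16, adjusted p = 0.0210). miR-9-5p had -0.17 (SE 0.11) and miR-129-5p 0.69 (SE 0.43), neither called. None of the 12 was called between the ages in WT mice, between genotypes at either age or in the interaction by edgeR, the largest log2FC being 0.90 (SE 0.45, adjusted p = 0.340) for miR-129-5p in WT mice.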

How the data were processed

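Small RNA libraries (NEBNext kit, Illumina sequencing) were made by the authors from CA1 tissue. According to the submitters' processing notes, bcl2fastq 2.20.2, FastQC 0.11.5 and cutadapt 2.8 were used. The authors mapped reads to mm10 and counted them with mirdeep2 on miRBase mature and precursor pairs. The deposited values used here are raw counts per pair; a second deposited table of the same counts scaled to library size was not used.

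Of 2180 rows, 52 spike-in rows were left out and the highest precursor row of each of 1978 mature miRNAs was kept. Depth per library was 2656368 to 36547011 counts. edgeR 4.0.16 (R 4.3.3, filterByExpr with minimum count 10 and total 15, TMM, robust quasi-likelihood fit of the groups compared, Benjamini-Hochberg) was fitted over all miRNAs. Ratios (0.5 added to each count) were tested by permutation over samples (scipy 1.17.1, 100000 resamples or exact), adjusted over 24 tests. Fits were tested on simulated data. Alternatives used DESeq2 1.42.0, limma 3.58.1, other scalings and filters, left-out mice and the replicate number as a block. Named miRNAs were the members, further rows of the family, miRNAs with a member's seed, the 3 most alike per member, and fixed lists of neuronal and cell type miRNAs with at most 4 examples of the highest mean; miR-124-3p as a correlate was chosen after its values were seen. Members, lists and tests were chosen with earlier results of these data known. No 2 libraries of the same group were alike within sampling noise, and pairs across groups were not compared.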

Additional observations from a re-analysis of the deposited data

Results flagged for a closer look

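One value among 26 sets of 5 or 9 libraries stood apart from its group by Dixon's test, which by chance marks about 1 in 20 sets. The log2 ratio of miR-181a-1-3p to miR-181a-2-3p was 2.78 in 3-month WT mouse 2, while the other 4 mice of that group lay between 1.39 and 1.73, and the gap was 0.755 of the whole range against a critical value of 0.710. This is 1 of the 2 mice whose genotype field and title disagree. The 3-month TG mice ran from -0.57 to 2.73. Within its group this library was the deepest (log2 total miRNA count 24.23, against 22.97 to 23.96). It was also the highest in miR-124-3p (log2 CPM 12.43, against 11.42 to 11.73), and the part of either was not tested.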

How the results depend on the processing

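Of 13 alternatives, 9 kept the call of miR-181b-5p between the ages in TG mice, with log2FC between -0.63 and -0.30. Of the 7 members, 0 were called there without a filter on low counts (70 of 1621 miRNAs called) or with limma-trend (88 of 629). The same held without the 4 shallow libraries (74 of 636) and with depth as a covariate (66 of 629), both chosen after seeing the data. Total miRNA count scaling (17.2% of all miRNAs called) and DESeq2 (22.6%) each called 2 members. With 1 or 2 RUVr factors 3 members were called (48.5 and 51.0%). Leaving out 1 mouse gave 0 to 1. Between the ages in WT mice 3 members were called with 1 or 2 RUVr factors (28.9 and 32.3% of all miRNAs) and 2 under the replicate block (37.9%), and at 3 months 1 member with 2 RUVr factors (7.77%, or 54 miRNAs). The cause of these changes was not tested. In all, 99 miRNAs were called between the ages in TG mice, against 305 and 321 with 1 and 2 RUVr factors, 66 with depth as a covariate, and 72 to 131 when 1 mouse was left out. In WT mice it was 1, against 15 with DESeq2, 191 and 213 with RUVr, 0 with limma and 250 with the replicate block. The fewest reads of a member in a library were 22 for miR-181c-3p and 36 for miR-181c-5p.

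The replicate numbers of the titles recur in the groups, but same-numbered mice did not all deviate together. The mean correlation of their deviations was 0.23 over 9 pairs in TG mice between the ages, 0.04 over 5 in WT mice, 0.01 over 5 at 3 months and 0.26 over 11 at 6 months, and 7, 2, 2 and 9 pairs exceeded 0.1. No label says what the number stands for, and whether same-numbered mice share a source was not tested. With the replicate block miR-181b-5p had -0.43 (adjusted p = 0.0426, edgeR) between the ages in TG mice, and the 2 members called in WT mice were miR-181a-2-3p (1.01, adjusted p = 0.00935) and miR-181c-3p (-0.84, adjusted p = 0.0245). With the block miR-181a-2-3p also turned to 0.30 between the ages in TG mice and to -0.11 at 6 months, and in WT mice the log2 ratios of miR-181a-1-3p to miR-181a-2-3p and of miR-181a-2-3p to miR-181a-5p moved to -1.51 and 1.38.

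No other value that changed its sign had been called, and the cause was not tested for any. Scaling by the total miRNA count gave, for TG against WT at 6 months, -0.028 for miR-181a-5p, -0.086 for miR-181b-5p, -0.035 for miR-181c-5p, -0.017 for miR-181a-1-3p and -0.015 for miR-181a-2-3p, and in the interaction -0.0028 for miR-181a-1-3p and -0.11 for miR-181c-3p. With limma-trend the 6-month values were -0.058 for miR-181b-5p and -0.015 for miR-181a-2-3p. At 3 months miR-181a-1-3p turned to 0.044 without a filter, 0.025 with DESeq2, 0.024 with its size factors in edgeR, 0.0092 and 0.0077 with 1 and 2 RUVr factors, 0.0076 with counts summed over precursors and 0.017 in a joint fit of 4 groups. DESeq2 and its size factors in edgeR put miR-181c-3p at -0.0081 and -0.0079 in the interaction, and 1 and 2 RUVr factors put miR-181a-2-3p at 0.064 and 0.066 between the ages in TG mice. Depth as a covariate gave 0.0011 for miR-181c-5p and 0.045 for miR-181c-3p in TG mice and 0.045 for miR-181c-5p in WT mice between the ages. Without the shallow libraries miR-181c-5p had 0.024 in WT mice, and at 6 months the log2 ratio of miR-181a-1-3p to miR-181a-2-3p differed by -0.042 and that of miR-181a-2-3p to miR-181a-5p by 0.0029.

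Without 3-month WT mice 1 and 2, whose genotype field reads TG, miR-181a-5p and miR-181c-5p had 0.10 and 0.33 between the ages in WT mice, miR-181a-1-3p 0.17 at 3 months, and miR-181a-1-3p and miR-181c-3p -0.083 and -0.091 in the interaction, while the log2 ratios to miR-181a-5p differed at 3 months by -0.15 for miR-181a-2-3p and -0.043 for miR-181b-5p. Counted as TG, they left 0 of the 24 ratio tests past the threshold. They then gave 0.069 for miR-181a-2-3p in TG mice and 0.10 and 0.33 for miR-181a-5p and miR-181c-5p in WT mice between the ages, 0.23 and 0.065 for miR-181a-1-3p and miR-181c-3p at 3 months and -0.13 and -0.15 for both in the interaction. The log2 ratio of miR-181c-5p to miR-181d-5p differed by -0.038 between the ages in TG mice, and at 3 months the ratios of miR-181a-1-3p to miR-181a-2-3p, of miR-181a-2-3p to miR-181a-5p and of miR-181b-5p to miR-181a-5p differed by 0.0048, -0.24 and -0.087.

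Leaving out 1 mouse at a time turned the sign of uncalled values over these ranges. Between the ages it was -0.14 to 0.25 for miR-181a-2-3p in TG mice, and -0.24 to 0.11 for miR-181c-5p and -0.22 to 0.019 for miR-181a-5p in WT mice. Between genotypes it was -0.079 to 0.13 for miR-181a-1-3p and -0.26 to 0.13 for miR-181c-3p at 3 months, and -0.048 to 0.18 for miR-181a-2-3p and -0.016 to 0.081 for miR-181b-5p at 6 months. In the interaction it was -0.0025 to 0.19 for miR-181a-1-3p, -0.17 to 0.18 for miR-181c-3p and -0.22 to 0.031 for miR-181a-5p. Among log2 ratios at 3 months it was -0.036 to 0.15 for miR-181b-5p to miR-181a-5p, -0.076 to 0.28 for miR-181a-2-3p to miR-181a-5p and -0.12 to 0.31 for miR-181c-5p to miR-181d-5p, and between the ages in WT mice -0.58 to 0.011 for miR-181c-3p to miR-181c-5p and -0.19 to 0.24 for miR-181c-5p to miR-181d-5p. Of the other results of single members and ratios, 1203 kept their direction and side of the threshold, 15 passed it anew and 10 lost it.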
